A study of Mus musculus with 8 samples.

Results

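Lgi4, Adam22, Adam23, Adam11, Adgrg6 and Prnp encode the secreted Lgi4 ligand with receptors of its family, and the receptor Adgrg6 with its prion protein ligand. They were taken by symbol from a deposited table of 55487 mouse genes, in which each of the 6 symbols matched 1 row, and all 6 had enough counts to be tested. RNA was sequenced from sciatic nerves of mice at postnatal day 6, in 2 groups of 4 libraries. CNP-Cdk7cKO mice (CNPcre/+ Cdk7lox/lox) carried Cre recombinase at 1 allele of Cnp, a gene of myelin-forming glia, and 2 floxed alleles of the kinase gene Cdk7. Ctrl mice (CNP+/+ Cdk7lox/lox) had the same floxed alleles and no Cre, so loss of Cdk7, presence of Cre and the altered Cnp allele cannot be told apart. Every library is from whole nerve, and since the labels leave unsaid whether each had its own animal, p-values reflect only library-to-library spread, which may be technical.

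Schwann cells, the glia of peripheral nerve, wait for axonal and matrix cues before they wrap an axon in myelin. Lgi4 is secreted by Schwann cells and binds Adam22 on the axon surface, and mice that lack either of them, such as the claw paw mutant of Lgi4, myelinate peripheral axons late and poorly. Adgrg6 (Gpr126) is an adhesion G protein-coupled receptor of Schwann cells that raises cyclic AMP and is needed for the onset of myelination. The flexible tail of the prion protein, made by axons and other cells, activates Adgrg6 in Schwann cells, and mice without Prnp develop a late demyelinating neuropathy.

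The coding stretches below were read from GENCODE M21 transcripts (GRCm38). They cover an end of the prion protein, a site in Adgrg6 and the place of the zinc-binding motif in the ADAM proteins. None is from Lgi4. In Prnp, at chr2:131936493-131936525 on the forward strand in exon 3 of 3, capitals mark the basic stretch at the amino-terminal end of the mature protein, the end that activates Adgrg6.
Prnp: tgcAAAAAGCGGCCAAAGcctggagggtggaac
In Adgrg6, the stretch crosses the site where the receptor cuts itself and joins exons 18 and 19 of 25, so its ends lie at 14428209 and 14431641 of chromosome 10 on the reverse strand with an intron between them. Capitals mark the first codons after the cut, which encode the tethered agonist.
Adgrg6: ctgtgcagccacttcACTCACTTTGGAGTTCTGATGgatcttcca
The last set compares Adam22, Adam23 and Adam11 with Adam9, an ADAM family protease. Capitals in Adam9 mark the codons of the zinc-binding histidines and the catalytic glutamate, and capitals in the others mark the codons aligned with them. The motif was found in the reading frame of Adam9 and in that of none of Adam22, Adam23 and Adam11.
Adam9: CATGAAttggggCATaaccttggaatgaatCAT
Adam22: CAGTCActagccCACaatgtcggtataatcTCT
Adam23: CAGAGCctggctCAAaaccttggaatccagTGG
Adam11: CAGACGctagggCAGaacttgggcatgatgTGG
These windows lie at chr8:24990326-24990358 on the reverse strand (Adam9, exon 11 of 22), chr5:8143064-8143096 on the reverse strand (Adam22, exon 13 of 30), chr1:63547763-63547795 on the forward strand (Adam23, exon 13 of 26) and chr11:102773613-102773645 on the forward strand (Adam11, exon 13 of 26).

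The libraries held 16897242 to 21527891 estimated counts, and 15056 genes were tested. Values are CPM, counts brought to a common library size by trimmed-mean scaling, and each fold change sets CNP-Cdk7cKO over Ctrl. A gene was called at an adjusted p under 0.05 in the quasi-likelihood test of edgeR (Benjamini-Hochberg over the 15056 genes), and 763 genes were higher and 994 lower. With libraries scaled to the summed counts of 9 pan-Schwann markers that split was 12182 higher and 208 lower, because this scaling moved the median of all genes by 0.55 on the log2 scale. Cdk7 fell to 11.6 ± 1.35 CPM in CNP-Cdk7cKO, against 21.5 ± 0.696 CPM in Ctrl (SD, n = 4 each). The log2 fold change was -0.89 ± 0.09 (SE, edgeR adjusted p = 0.000181), and Cdk7 was lower in every CNP-Cdk7cKO library than in any Ctrl library.

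The groups also differed in other ways. By counts of Xist and of Y-linked genes, the 4 CNP-Cdk7cKO libraries and Ctrl 1 came from females, and Ctrl 2, 3 and 4 from males, so edgeR was also run with Xist as a term (the Xist-adjusted fit) and on the 5 female libraries (the female-only fit). Skeletal muscle markers were lower in CNP-Cdk7cKO for 18 of 20 genes, with a summed level of 115 to 735 CPM in CNP-Cdk7cKO and 626 to 6101 CPM in Ctrl, with 0.0571 as the two-sided exact permutation p, and a muscle-adjusted fit held their mean level as a term. Pan-Schwann markers were lower for 5 of 9 genes, S100b, Cdh19 and Fxyd3 among them, and higher for 0. Without CNP-Cdk7cKO 1 they were lower for 3 of 9. Their sum, in which the most abundant markers weigh most, was 52230 to 59390 CPM in CNP-Cdk7cKO and 78211 to 88395 CPM in Ctrl (two-sided exact permutation p = 0.0286, the smallest these groups can give). In bulk nerve, fewer Schwann cells and less of an RNA per Schwann cell cannot be told apart. Neuron markers, which bear on axonal genes, gave 75.4 to 84.6 CPM in CNP-Cdk7cKO and 73.2 to 87.2 CPM in Ctrl, with Syt1, Elavl4, Rbfox3 and Isl1 at or below 0.299 CPM in every library. One of the 8 tested neuron markers rose (Tubb3) and 1 fell (Uchl1). Among the other cell types, 2 of 8 fibroblast markers (Col1a1, Pdgfra) and 4 of 8 macrophage markers rose, and 3 of 3 melanocyte markers and 1 of 6 mural markers (Pdgfrb) fell. The perineurial, endothelial, erythroid and adipocyte markers were not called by edgeR. Over all tested genes 5.07% were called higher and 6.6% lower.

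Lgi4, its receptors Adam22 and Adam23, and the receptor Adgrg6 had lower RNA levels in CNP-Cdk7cKO nerves than in Ctrl nerves, while Adam11 and Prnp did not pass the test. By the fitted fold change, levels fell by 47.5% for Adam23, fell by 30.7% for Lgi4, fell by 27.9% for Adgrg6 and fell by 18.5% for Adam22. Of all 15056 genes, 11.7% were called, with 6.6% lower and 5.07% higher, and of these 6 genes 4 were called lower and 0 higher. The 4 CNP-Cdk7cKO values lay below all 4 Ctrl values for 5 of the 6 genes, Prnp included, and above them for 0. Over all genes such a gap was present in 18.8%, with CNP-Cdk7cKO below in 9.51% and above in 9.34%. The median log2 fold change was -0.38 over the 6 genes and 0.00 over all genes. These are levels relative to all RNA of the nerve. Scaled to the summed pan-Schwann markers, Adam23 stayed lower (log2 fold change -0.38), and Lgi4, Adam22, Adgrg6 and Prnp changed sign (0.03, 0.26, 0.09 and 0.44). Under that scaling, by which 80.9% of all genes were called higher, edgeR called Adam22 (adjusted p = 0.0133) and Prnp (adjusted p = 6.46e-05) higher, and Lgi4 (adjusted p = 0.709) and Adgrg6 (adjusted p = 0.408) were not called. A change of scaling moves all genes by nearly the same amount, here 0.55 at the median. Taking that amount off gives back the trimmed-mean values by construction, and is not a separate result. These were -0.53 for Lgi4, -0.30 for Adam22, -0.93 for Adam23, -0.47 for Adgrg6 and -0.12 for Prnp.

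**Figure D1:**
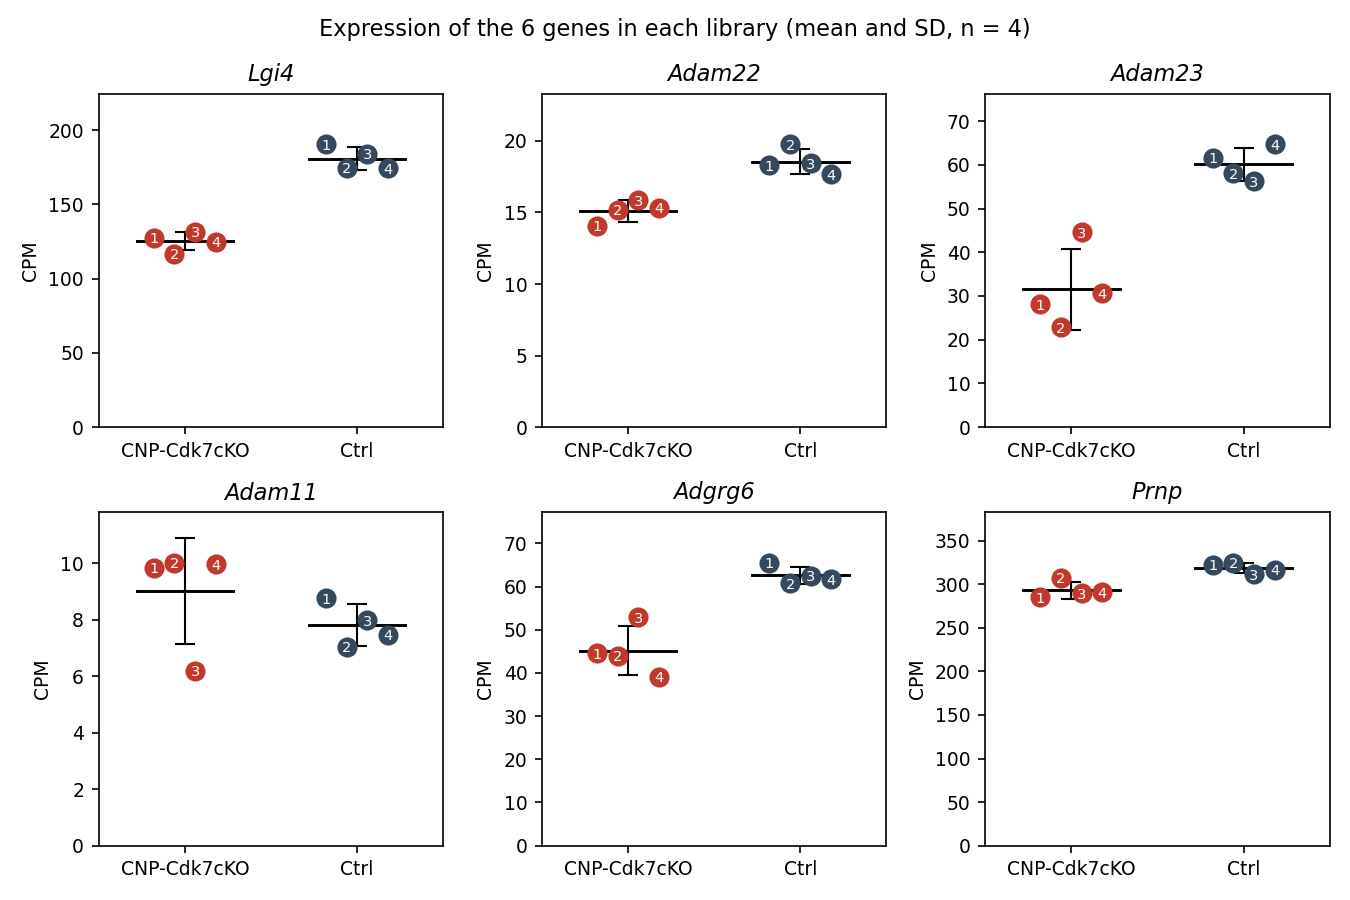
CPM of the 6 genes in each library, with CNP-Cdk7cKO left of Ctrl, the replicate number inside each point, and lines and bars for the mean and SD (n = 4 each). The groups stand apart for Lgi4, Adam22, Adam23, Adgrg6 and Prnp, all lower in CNP-Cdk7cKO at this scaling, and overlap for Adam11, where CNP-Cdk7cKO 3 lies below all Ctrl libraries.

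The ligand Lgi4 (ENSMUSG00000036560, chr7:31059342-31070935, forward strand) had 128, 117, 132 and 125 CPM in CNP-Cdk7cKO 1 to 4, against 190, 175, 184 and 174 CPM in Ctrl 1 to 4. The groups did not overlap, and their gap was wider than the spread within either. Means were 125 ± 6.26 CPM in CNP-Cdk7cKO and 181 ± 7.82 CPM in Ctrl (SD, n = 4 each), a log2 fold change of -0.53 ± 0.05 (SE, 95% interval -0.64 to -0.42, edgeR adjusted p = 0.000162). Lgi4 was the 1 gene of the 6 that stayed called by edgeR in the Xist-adjusted (-0.60, adjusted p = 0.00508), muscle-adjusted (-0.65, adjusted p = 0.00153) and female-only (-0.61, adjusted p = 0.0181) fits. In the last of these Ctrl 1 is the lone control, assumed to vary as the CNP-Cdk7cKO libraries do. Exons of Lgi4 overlap those of Fxyd3 on the other strand. Libraries were stranded per the labels, but whether counting used the strand is not given in the sources used here. Fxyd3 was small beside Lgi4, at 12.9 to 15.8% of its CPM in CNP-Cdk7cKO and 11.2 to 12.1% in Ctrl.

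Adam22 (ENSMUSG00000040537, chr5:8072352-8368160, reverse strand), the receptor through which Lgi4 acts in nerve, had 14.1, 15.2, 15.9 and 15.3 CPM in CNP-Cdk7cKO 1 to 4, against 18.3, 19.8, 18.4 and 17.7 CPM in Ctrl 1 to 4. The highest CNP-Cdk7cKO library lay below the lowest Ctrl library. The means of 15.1 ± 0.751 CPM in CNP-Cdk7cKO and 18.5 ± 0.880 CPM in Ctrl gave a log2 fold change of -0.30 ± 0.07 (SE, 95% interval -0.44 to -0.15, edgeR adjusted p = 0.0184). Of the 4 called genes Adam22 had the smallest fall and the least stable call. The edgeR call was lost without CNP-Cdk7cKO 1 (-0.26, adjusted p = 0.0547), without Ctrl 2 (-0.26, adjusted p = 0.0569), and in the Xist-adjusted (-0.28, adjusted p = 0.278), muscle-adjusted (-0.37, adjusted p = 0.168) and female-only (-0.28, adjusted p = 0.397) fits.

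Adam23 (ENSMUSG00000025964, chr1:63445891-63596276, forward strand), a further receptor of LGI proteins, fell the most of the 6. It had 28.1, 22.8, 44.6 and 30.7 CPM in CNP-Cdk7cKO 1 to 4, against 61.6, 58.1, 56.2 and 64.7 CPM in Ctrl 1 to 4. The CNP-Cdk7cKO libraries spread widely, with replicate 3 nearest to Ctrl and replicate 2 farthest from it, yet none reached the Ctrl range. Means were 31.6 ± 9.29 CPM in CNP-Cdk7cKO and 60.1 ± 3.75 CPM in Ctrl, a log2 fold change of -0.93 ± 0.16 (SE, 95% interval -1.28 to -0.58, edgeR adjusted p = 0.00415). Adam23 also fell when libraries were scaled to the summed pan-Schwann markers (edgeR adjusted p = 0.0374), and in the muscle-adjusted fit (-1.20, adjusted p = 0.0394). In the Xist-adjusted fit the difference was as large (-0.96) but not called (edgeR adjusted p = 0.0917), and in the female-only fit likewise (-0.97, adjusted p = 0.161).

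Adam11 (ENSMUSG00000020926, chr11:102761439-102780262, forward strand), the third relative without the zinc-binding motif, had 9.83, 10.005, 6.18 and 9.96 CPM in CNP-Cdk7cKO 1 to 4, against 8.75, 7.03, 7.98 and 7.46 CPM in Ctrl 1 to 4. Replicates 1, 2 and 4 of CNP-Cdk7cKO lay above every Ctrl library and replicate 3 below, so the groups overlapped. The means were 8.99 ± 1.87 CPM in CNP-Cdk7cKO and 7.81 ± 0.740 CPM in Ctrl, with a log2 fold change of 0.21 ± 0.16 (SE, 95% interval -0.14 to 0.55, edgeR adjusted p = 0.439). That interval does not hold the fold changes of Lgi4, Adam22 or Adam23. With the libraries scaled to the summed pan-Schwann markers Adam11 was called higher (0.76, edgeR adjusted p = 0.000812).

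Adgrg6 (ENSMUSG00000039116, chr10:14402583-14545659, reverse strand) had 44.6, 44.0, 52.9 and 39.1 CPM in CNP-Cdk7cKO 1 to 4, against 65.5, 60.8, 62.5 and 61.7 CPM in Ctrl 1 to 4. The Ctrl libraries were tightly grouped, and CNP-Cdk7cKO 3 was again the knockout library nearest to them. The fall to a mean of 45.2 ± 5.71 CPM in CNP-Cdk7cKO, against 62.6 ± 2.03 CPM in Ctrl, gave a log2 fold change of -0.47 ± 0.08 (SE, 95% interval -0.65 to -0.30, edgeR adjusted p = 0.00369). It was called in the muscle-adjusted fit (-0.59, edgeR adjusted p = 0.0461), and missed the threshold in the Xist-adjusted (-0.54, adjusted p = 0.0678) and female-only (-0.54, adjusted p = 0.144) fits. An antisense gene that overlaps its exons, Gm46212, had 57 counts over all libraries.

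Prnp (ENSMUSG00000079037, chr2:131909928-131938429, forward strand), which encodes the prion protein, had 285, 308, 290 and 291 CPM in CNP-Cdk7cKO 1 to 4, against 323, 325, 312 and 317 CPM in Ctrl 1 to 4. All CNP-Cdk7cKO libraries lay below all Ctrl libraries, by a narrow margin between CNP-Cdk7cKO 2 and Ctrl 3. The means of 293 ± 9.75 CPM in CNP-Cdk7cKO and 319 ± 5.85 CPM in Ctrl gave a log2 fold change of -0.12 ± 0.04 (SE, 95% interval -0.21 to -0.03), which edgeR did not call (adjusted p = 0.0758). DESeq2 (-0.12, adjusted p = 0.0276) and limma-voom (-0.12, adjusted p = 0.0484) called the same small difference. The interval of Prnp reaches no lower than -0.21, whereas that of its receptor Adgrg6 ends at -0.30. Prnp also lay above Adgrg6 when scaled to the summed pan-Schwann markers (0.44 and 0.09) or to their geometric mean (0.25 and -0.11). The change farther from 0 was that of Adgrg6 at trimmed-mean scaling and that of Prnp with these markers. The difference between these fold changes was not tested.

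Per kilobase of the longest annotated coding transcript, Prnp was the most abundant of the 6, with 134 ± 4.46 CPM per kilobase in CNP-Cdk7cKO and 146 ± 2.68 in Ctrl. Lgi4 came next, with 31.0 ± 1.55 CPM per kilobase in CNP-Cdk7cKO and 44.8 ± 1.94 in Ctrl, far above any of the receptors. Adgrg6 had 6.94 ± 0.877 in CNP-Cdk7cKO and 9.62 ± 0.312 in Ctrl, and Adam23 had 4.91 ± 1.45 in CNP-Cdk7cKO and 9.36 ± 0.584 in Ctrl, with values that overlapped between these genes in both groups. That depended on the length used. Over all exons of the gene, the means for Adgrg6 and Adam23 were 3.69 and 1.76 in CNP-Cdk7cKO, and 5.12 and 3.36 in Ctrl. The lowest were Adam22, with 1.63 ± 0.0812 in CNP-Cdk7cKO and 2.00 ± 0.0952 in Ctrl, and Adam11, with 1.76 ± 0.368 in CNP-Cdk7cKO and 1.53 ± 0.145 in Ctrl. Adam22 and Adam11 overlapped in CNP-Cdk7cKO and not in Ctrl, but their order in Ctrl turned round when length was taken over all exons of the gene (1.29 for Adam22 and 1.38 for Adam11). Adam22 is known from axons, whose cell bodies lie outside the nerve, so its level here is that of the RNA in the nerve and not of the protein on axons.

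Within each library, ratios of CPM show which genes moved apart. Lgi4 over Adam22 was 9.06, 7.69, 8.30 and 8.16 in CNP-Cdk7cKO 1 to 4, against 10.4, 8.84, 9.97 and 9.87 in Ctrl 1 to 4, so that the groups overlapped. Lgi4 over Adam23 was 4.53, 5.12, 2.95 and 4.07 in CNP-Cdk7cKO, against 3.09, 3.01, 3.27 and 2.69 in Ctrl, with CNP-Cdk7cKO 3 inside the Ctrl range and the others above it. Adgrg6 over Prnp was 0.156, 0.143, 0.182 and 0.134 in CNP-Cdk7cKO, against 0.203, 0.187, 0.200 and 0.195 in Ctrl. This receptor-to-ligand ratio was the 1 of the 4 ratios in which the groups stood apart. Lgi4 over Adgrg6 averaged 2.80 ± 0.304 in CNP-Cdk7cKO and 2.89 ± 0.0523 in Ctrl (SD, n = 4 each), with overlapping values.

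The other LGI ligands were Lgi1, which fell, and Lgi2 and Lgi3, which did not pass the test. Lgi1, best known as a neuronal ligand of Adam22 and Adam23 in brain, had 17.3, 15.7, 23.5 and 19.2 CPM in CNP-Cdk7cKO 1 to 4, against 34.8, 32.9, 31.4 and 35.1 CPM in Ctrl 1 to 4. Its groups did not overlap, and the log2 fold change was -0.83 ± 0.11 (SE, edgeR adjusted p = 0.000881). In the female-only fit Lgi1 was not called (-0.88, edgeR adjusted p = 0.0723). Lgi2 averaged 7.87 ± 0.324 CPM in CNP-Cdk7cKO and 7.24 ± 1.22 CPM in Ctrl, and Lgi3 2.94 ± 0.650 CPM in CNP-Cdk7cKO and 2.85 ± 0.612 CPM in Ctrl, and neither was called by edgeR (adjusted p = 0.591 and 0.917). Of the 7 LGI ligands and ADAM22-family receptors, the 4 described above included, 4 fell (Lgi1, Lgi4, Adam22, Adam23) and 0 rose. Of all genes 6.6% fell and 5.07% rose. The median log2 fold change of the 7 was -0.30, against 0.00 for all genes.

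Adam22 sits in axonal membrane complexes with Kv1 potassium channels and Dlg scaffold proteins. As for Adam22, the levels of these partners are of RNA in whole nerve, and the cells that hold it were not told apart. Of 9 such partners 7 were tested, and 2 of them fell while 1 rose, beside 6.6% and 5.07% of all genes. The median log2 fold change of the 7 was -0.14. Kcna2, a pore-forming subunit, fell to 181 ± 7.18 CPM in CNP-Cdk7cKO, against 267 ± 9.06 CPM in Ctrl (log2 fold change -0.56 ± 0.04, edgeR adjusted p = 6.98e-05). Kcna1, another pore-forming subunit, fell to 11.8 ± 1.73 CPM in CNP-Cdk7cKO, against 17.5 ± 1.51 CPM in Ctrl (-0.57 ± 0.11, edgeR adjusted p = 0.00771). Kcnab2, a cytoplasmic beta subunit, went the other way, with 24.0 ± 1.34 CPM in CNP-Cdk7cKO and 17.97 ± 1.41 CPM in Ctrl (0.42 ± 0.07, edgeR adjusted p = 0.00449). Kcna2 stayed called by edgeR in the Xist-adjusted (adjusted p = 0.00558), muscle-adjusted (adjusted p = 0.00575) and female-only (adjusted p = 0.0188) fits, whereas Kcna1 and Kcnab2 did not in any of the 3. Both Kv1 subunits lost their fall when scaled to the summed pan-Schwann markers (-0.01 for Kcna2 and -0.02 for Kcna1). The scaffold genes Dlg1, Dlg3 and Dlg4 had log2 fold changes of -0.01, -0.20 and -0.14 and were not called. Cntn2 and Cntnap2, the adhesion proteins beside these channels, were at or below 0.62 CPM in every library and not tested.

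Adgrg6 binds ligands of the Schwann cell basal lamina, and at trimmed-mean scaling edgeR called none of the ligand genes lower. Of 10 collagen IV, laminin and prion genes tested, 1 rose and 0 fell, beside 5.07% and 6.6% of all genes. The median log2 fold change of the 10 was 0.07. Col4a1 averaged 2284 ± 101 CPM in CNP-Cdk7cKO and 2261 ± 128 CPM in Ctrl (log2 fold change 0.01, edgeR adjusted p = 0.88). Lama2, the alpha chain of the Schwann cell laminin that binds Adgrg6, averaged 596 ± 15.9 CPM in CNP-Cdk7cKO and 554 ± 10.6 CPM in Ctrl, with no overlap between the groups and no call (edgeR adjusted p = 0.0918). Lamb1 and Lamc1, the chains that join it, had log2 fold changes of 0.01 and 0.11. The 1 called gene, Col4a6, was scarce, with 3.31 ± 0.477 CPM in CNP-Cdk7cKO and 2.07 ± 0.213 CPM in Ctrl (0.68 ± 0.17, edgeR adjusted p = 0.0265). Its call was lost without any of CNP-Cdk7cKO 1, 2 or 4 or Ctrl 2, 3 or 4 (edgeR adjusted p = 0.0755, 0.0543, 0.0603, 0.0544, 0.0573 and 0.0659), and in the Xist-adjusted, muscle-adjusted and female-only fits.

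Adgrg6 couples to the stimulatory G protein Gnas, adenylyl cyclases and protein kinase A. Of 24 such genes 1 rose and 0 fell, beside 5.07% and 6.6% of all genes. The median log2 fold change of the 24 was -0.06, and those not called lay between -0.37 and 0.21. Gnas averaged 1585 ± 93.4 CPM in CNP-Cdk7cKO and 1529 ± 21.8 CPM in Ctrl (0.05, edgeR adjusted p = 0.497). Prkaca, the catalytic kinase subunit, and Creb1, a transcription factor it phosphorylates, had log2 fold changes of -0.09 and -0.12 and were not called. The 1 called gene, the cyclase Adcy5, averaged 25.5 ± 2.16 CPM in CNP-Cdk7cKO and 21.7 ± 0.730 CPM in Ctrl (0.23 ± 0.07, edgeR adjusted p = 0.0476). That call was not kept by DESeq2 (adjusted p = 0.0616), nor by edgeR without any 1 library other than CNP-Cdk7cKO 4 (adjusted p = 0.0707 to 0.127).

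Downstream of Adgrg6, cyclic AMP is known to induce Pou3f1 (Oct6), which precedes Egr2 (Krox20) and the myelin protein genes. Of 8 such factors and targets 3 fell and 0 rose, beside 6.6% and 5.07% of all genes. All 8 had negative log2 fold changes, with a median of -0.15. Pou3f1 had a mean of 178 ± 14.0 CPM in CNP-Cdk7cKO, against 221 ± 9.02 CPM in Ctrl (-0.31 ± 0.06, edgeR adjusted p = 0.00726). Egr2, the factor that maintains myelin, averaged 257 ± 16.5 CPM in CNP-Cdk7cKO and 262 ± 18.3 CPM in Ctrl (-0.03, edgeR adjusted p = 0.804), and Sox10, which acts through the whole Schwann lineage, was not called (-0.14, edgeR adjusted p = 0.119). Mbp, which encodes a structural myelin protein, fell (-0.22 ± 0.05, edgeR adjusted p = 0.013), a call that held in the Xist-adjusted fit (adjusted p = 0.0325) and was lost in the muscle-adjusted (adjusted p = 0.123) and female-only (adjusted p = 0.164) fits. Both Pou3f1 and Mbp changed sign when scaled to the summed pan-Schwann markers (0.25 and 0.34) or to their geometric mean (0.06 and 0.15). The Pou3f1 call held in the muscle-adjusted fit (edgeR adjusted p = 0.00879), and not in the Xist-adjusted (adjusted p = 0.0725) or female-only fit (adjusted p = 0.146).

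**Figure D2:**
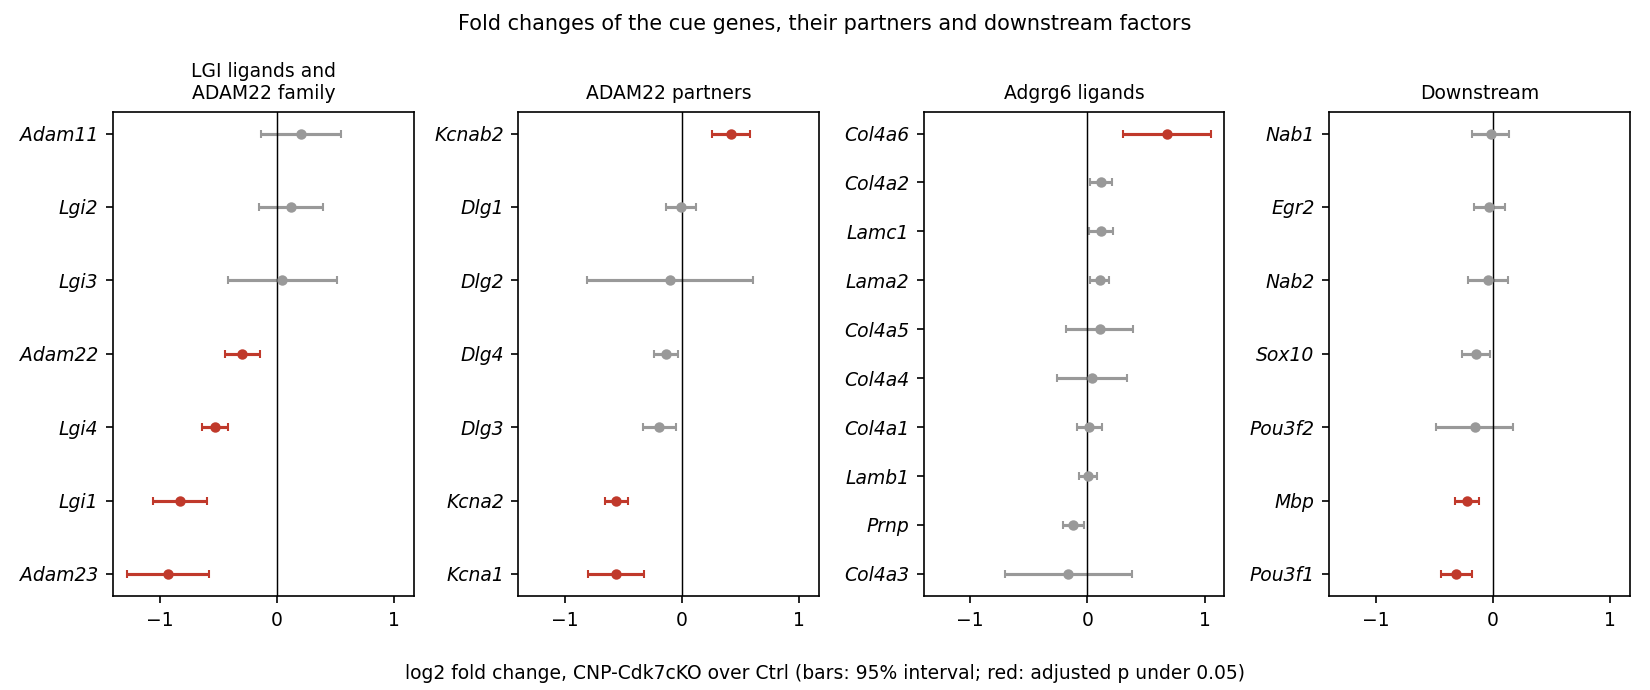
Log2 fold change of CNP-Cdk7cKO over Ctrl on the x axis for tested genes of the LGI and ADAM22 family, the ADAM22 partners, the Adgrg6 ligands and the factors downstream of Adgrg6, with 95% intervals from edgeR and genes with an adjusted p under 0.05 in red. At trimmed-mean scaling Adam23, Lgi1, Lgi4, Adam22, Kcna1, Kcna2, Pou3f1 and Mbp are red below 0 and Kcnab2 and Col4a6 red above 0; scaled to the summed pan-Schwann markers, Lgi4, Adam22, Pou3f1 and Mbp lie above 0.

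Of 30 adhesion G protein-coupled receptors, Adgrg6 included, 20 were tested. Of those tested 4 fell and 2 rose, beside 6.6% and 5.07% of all genes, around a median log2 fold change of -0.11. Adgrg1 (Gpr56), which takes part in the sorting of axons by Schwann cells in mice, had 57.3, 58.2, 65.2 and 64.5 CPM in CNP-Cdk7cKO 1 to 4, against 91.9, 94.6, 94.8 and 99.2 CPM in Ctrl 1 to 4. The groups lay far apart relative to their spread, with a log2 fold change of -0.63 ± 0.05 (SE, edgeR adjusted p = 9.85e-05), and the call held in the Xist-adjusted (adjusted p = 0.0105), muscle-adjusted (adjusted p = 0.00761) and female-only (adjusted p = 0.0318) fits. Adgrb1, a receptor for dying cells in phagocytes, rose to 18.6 ± 5.06 CPM in CNP-Cdk7cKO, against 9.29 ± 2.00 CPM in Ctrl (1.00 ± 0.19, edgeR adjusted p = 0.00816), a call that held in the muscle-adjusted fit (adjusted p = 0.00776) and was lost in the Xist-adjusted (adjusted p = 0.0808) and female-only (adjusted p = 0.126) fits. Celsr3 and Adgrl3 fell (-0.56 and -0.43 on the log2 scale) and Adgra2 rose (0.18), all with calls lost in the Xist-adjusted, muscle-adjusted and female-only fits. Without CNP-Cdk7cKO 3 or without Ctrl 2 the number of rises was 1 in place of 2.

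**Figure D3:**
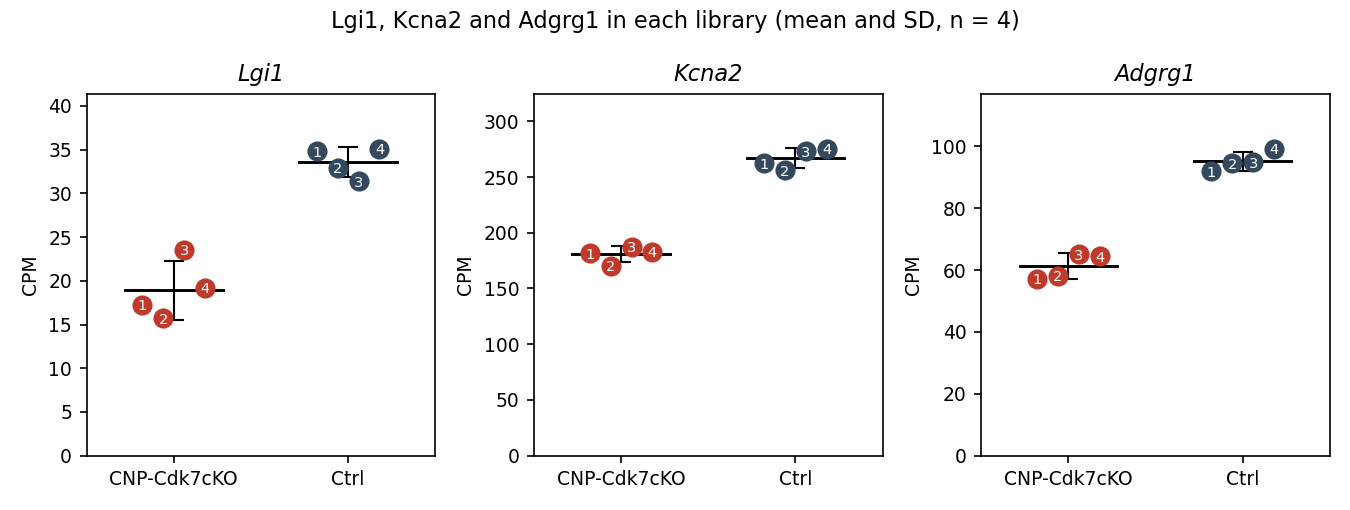
CPM of Lgi1, Kcna2 and Adgrg1 in each library, with CNP-Cdk7cKO left of Ctrl, the replicate number inside each point, and lines and bars for the mean and SD (n = 4 each). For all 3 genes every CNP-Cdk7cKO library lies below every Ctrl library at trimmed-mean scaling, whereas scaled to the summed pan-Schwann markers Lgi1 stays called lower (-0.27, edgeR adjusted p = 0.0287) and Kcna2 (-0.01, adjusted p = 0.907) and Adgrg1 (-0.08, adjusted p = 0.285) are not called.

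For the catalytic relatives of Adam22, 8 of 9 ADAM proteases were tested, and 1 of them fell while 0 rose, around a median log2 fold change of 0.12. A count of 1 in 8 is close to the 11.7% called among all genes. Adam17, a protease that cuts neuregulin 1 and restrains Schwann cell myelination in mice, fell to 89.0 ± 2.20 CPM in CNP-Cdk7cKO, against 104 ± 4.28 CPM in Ctrl (-0.23, edgeR adjusted p = 0.00798), a call that was lost in the Xist-adjusted (adjusted p = 0.208), muscle-adjusted (adjusted p = 0.344) and female-only (adjusted p = 0.291) fits. Of the 3 prion family genes 0 were called by edgeR, 1 had an unadjusted p under 0.05, and DESeq2 and limma-voom called 1 each, which was Prnp. Prnd, its neighbour on the chromosome, averaged 42.9 ± 8.46 CPM in CNP-Cdk7cKO and 46.8 ± 9.13 CPM in Ctrl.

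Taken in either direction, DESeq2 and limma-voom called 13.1% and 12.6% of all genes. They called 4 and 4 of the LGI ligands and receptors, 3 and 3 of the scaffold partners, and 3 and 3 of the downstream factors. They called 2 and 4 of the Adgrg6 ligands, 1 of them lower by each tool, 0 and 1 of the cyclic AMP genes, 6 and 7 of the adhesion receptors and 3 and 2 of the proteases. At an unadjusted p under 0.05 edgeR gave 4, 5 and 4 genes of the first 3 lists, 5 Adgrg6 ligands, 3 cyclic AMP genes, 11 adhesion receptors and 3 proteases, beside 26.1% of all genes. Scaled to the summed pan-Schwann markers, which moved the median of all genes by 0.55, edgeR called 9 of 10 Adgrg6 ligands, 21 of 24 cyclic AMP genes, 7 of 8 downstream factors, 14 of 20 adhesion receptors and 8 of 8 proteases higher, beside 80.9% of all genes. At that scaling 4 of 7 LGI ligands and receptors were called higher and 2 lower. Of the 7 tested scaffold partners 4 were called higher and 0 lower.

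Set against the pan-Schwann sum, the genes differed. Per 1000 CPM of that sum, Lgi4 stood at 2.27 ± 0.162 in CNP-Cdk7cKO and 2.22 ± 0.0885 in Ctrl, and Adgrg6 at 0.818 ± 0.121 in CNP-Cdk7cKO and 0.770 ± 0.0239 in Ctrl, differences smaller than the spread among the CNP-Cdk7cKO libraries. Adam22 stood at 0.273 ± 0.0119 in CNP-Cdk7cKO and 0.228 ± 0.0179 in Ctrl, and Adam11 at 0.163 ± 0.0357 in CNP-Cdk7cKO and 0.0958 ± 0.00597 in Ctrl, both higher on this measure. Adam23 averaged 0.569 ± 0.162 in CNP-Cdk7cKO and 0.740 ± 0.05003 in Ctrl, and CNP-Cdk7cKO 3, at 0.800, lay inside the Ctrl range of 0.697 to 0.812. Prnp, which cells other than Schwann cells also express, was higher, at 5.31 ± 0.333 in CNP-Cdk7cKO and 3.92 ± 0.189 in Ctrl. The part of Schwann cell number in any of these differences was not tested.

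**Figure D4:**
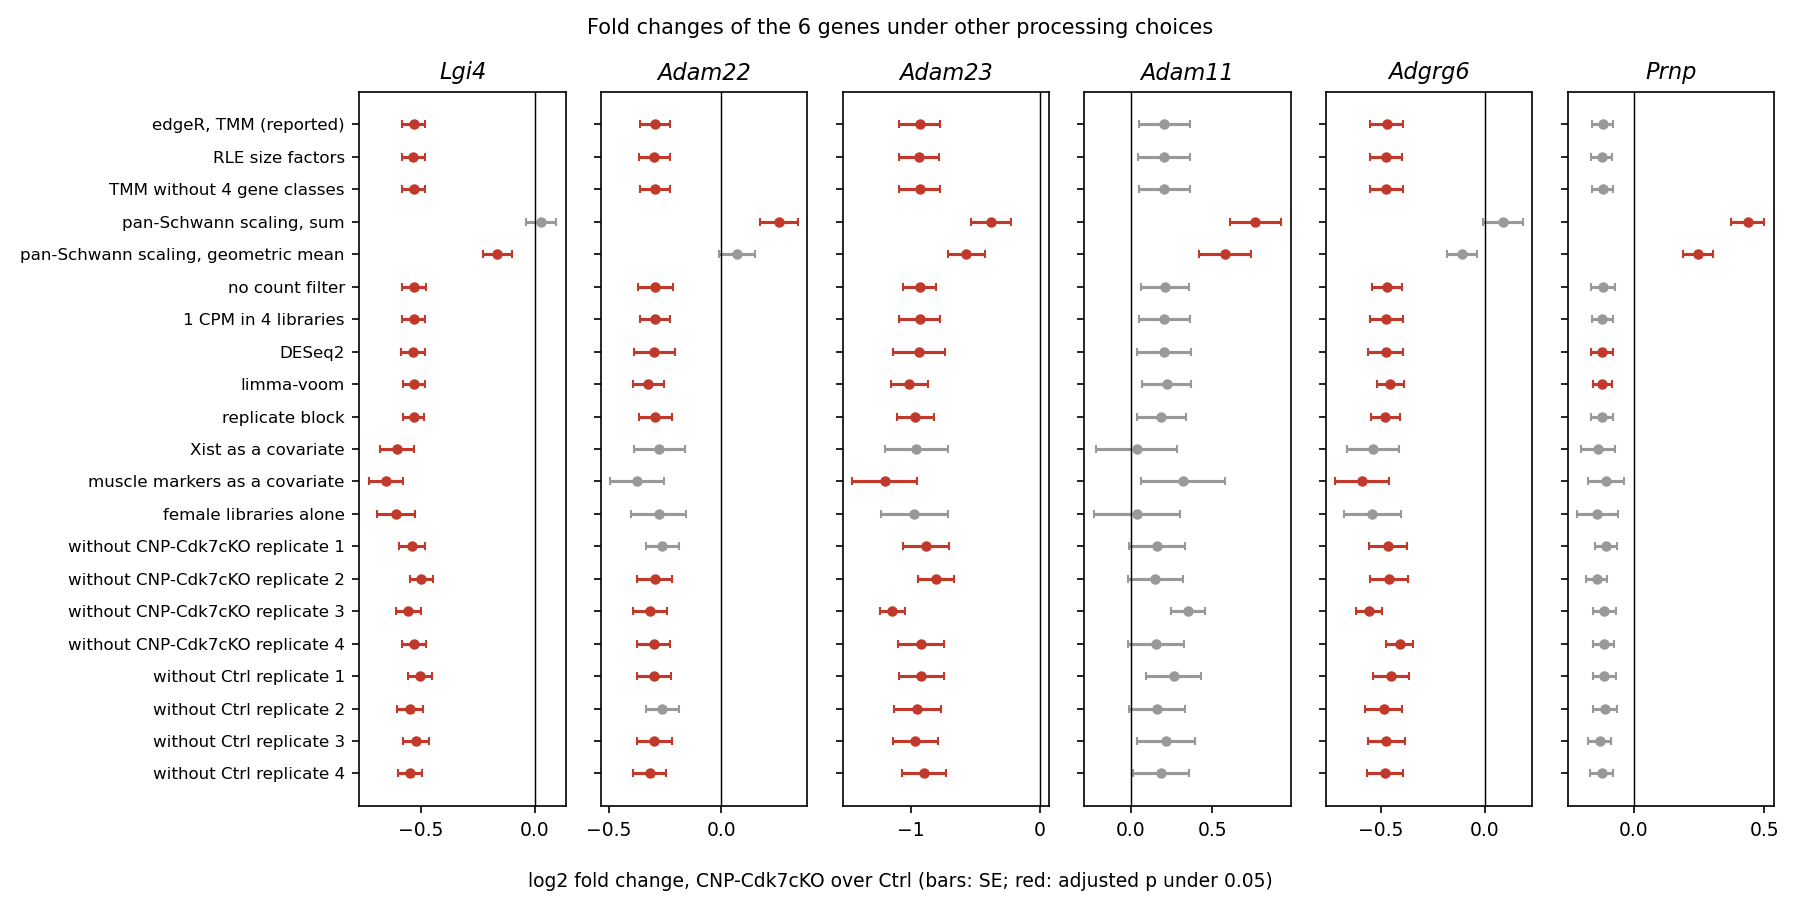
Log2 fold change of CNP-Cdk7cKO over Ctrl for each gene under the main fit and each alternative, with bars for the SE and values with an adjusted p under 0.05 in red. Outside the 2 pan-Schwann scalings no value changes sign, with Lgi4 between -0.65 and -0.50 and Adam23 between -1.20 and -0.80, and under the summed markers Lgi4, Adam22, Adgrg6 and Prnp lie above 0.

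Across the 8 libraries, the genes whose log2 CPM followed each member most closely were sought among 11302 genes with a mean of at least 5 CPM. Since the libraries share the group difference, Pearson's r is given over all 8 and again within groups, after the group means were taken out. For Lgi4 these were Sort1, Cldn19 and Fdps, with r of 0.993, 0.991 and 0.989 over all libraries and 0.863, 0.774 and 0.743 within groups. Cldn19 is a tight junction protein of myelinating Schwann cells and Fdps an enzyme of cholesterol synthesis. For Adam23 they were Tspan18, Elmo1 and Lgi1, with r of 0.993, 0.992 and 0.991 over all libraries and 0.973, 0.975 and 0.987 within groups. Thus Adam23 and Lgi1, a receptor and its ligand, varied together among replicates as well, both being highest in CNP-Cdk7cKO 3 among the knockouts. For Adgrg6 they were Sema6d, Pip4p1 and Trpm3, at 0.989, 0.988 and 0.986 over all libraries and 0.950, 0.930 and 0.980 within groups. Adam22 was nearest to Fam57a, Tmcc3 and Cdk7 itself (0.980, 0.978 and 0.976 over all libraries, and 0.855, 0.841 and 0.859 within groups). Prnp was nearest to Crebrf, Pradc1 and Lctl (0.994, 0.986 and 0.977 over all libraries, and 0.977, 0.965 and 0.897 within groups). Adam11 was nearest to Ift22, Cog1 and Aagab (0.964, 0.951 and 0.947 over all libraries, and 0.970, 0.943 and 0.968 within groups). These are the highest of many correlations over 8 points and are given as a description.

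**Figure D5:**
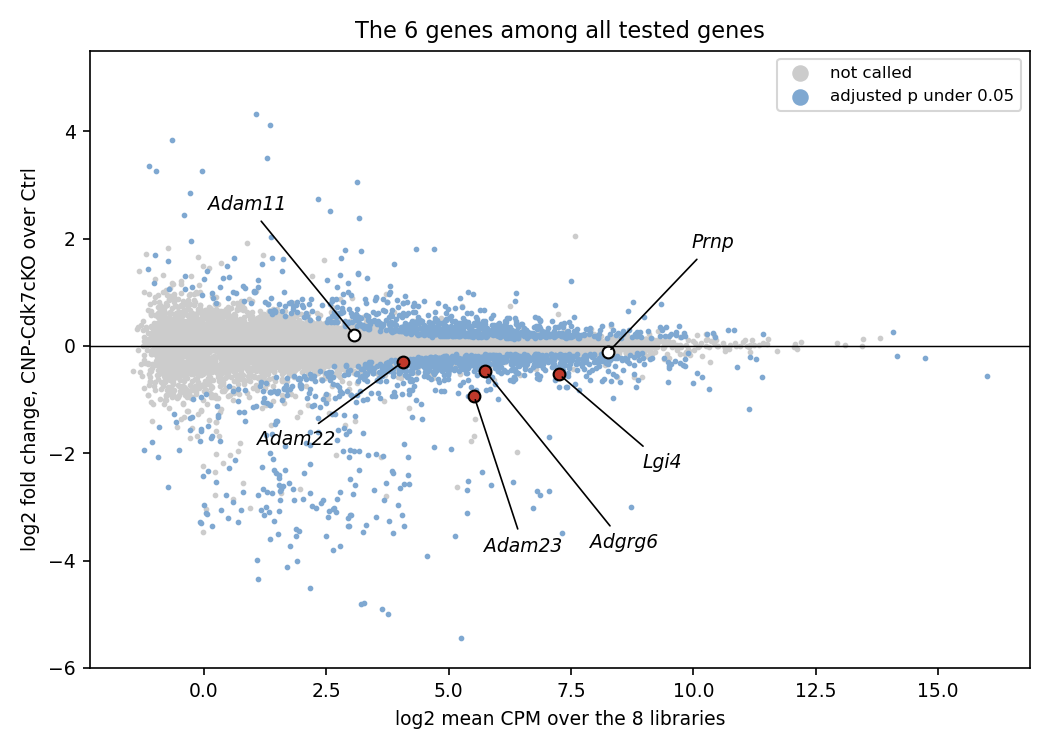
Log2 fold change of CNP-Cdk7cKO over Ctrl against mean expression for all 15056 tested genes, with the 6 genes named. At trimmed-mean scaling Adam23, Lgi4, Adgrg6 and Adam22 lie among the 6.6% of genes called lower, while Prnp and Adam11 are not called; scaling to the summed pan-Schwann markers moves all points up by 0.55 at the median.

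RefSeq promoter windows (GRCm38.p6) of 250 bases before an annotated transcript start were at hand for 4 of the 6 genes. For Adgrg6 that start lies inside the gene, and the window overlaps an exon of a longer Adgrg6 transcript. Those of Adam23, which fell most, and Prnp, which was not called by edgeR, are shown because they contrast. The Adam23 window lies at chr1:63445641-63445890 and the Prnp window at chr2:131909678-131909927, both on the forward strand, and capitals mark motif matches.
Adam23: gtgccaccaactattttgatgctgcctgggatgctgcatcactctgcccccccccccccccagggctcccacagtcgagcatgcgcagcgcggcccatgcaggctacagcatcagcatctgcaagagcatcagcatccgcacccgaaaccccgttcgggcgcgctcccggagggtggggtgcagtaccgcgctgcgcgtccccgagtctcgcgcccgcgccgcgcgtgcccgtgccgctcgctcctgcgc
Prnp: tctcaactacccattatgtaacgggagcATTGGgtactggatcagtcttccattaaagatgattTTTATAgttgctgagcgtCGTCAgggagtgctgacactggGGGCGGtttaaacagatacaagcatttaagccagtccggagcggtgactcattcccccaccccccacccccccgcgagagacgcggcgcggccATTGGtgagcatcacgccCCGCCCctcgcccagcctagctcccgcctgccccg
Motifs were searched on both strands, and their share is over 32851 promoter windows of this length. TATAAA, the TATA box, was in 12.4% of windows. The CCAAT box, searched by the letters of its name, was in 33.8%, and GGGCGG, the GC box, was in 32.7%. TGACG, the core of the cyclic AMP response element, was in 17.8%. For transcription factors of the lineage, ACAAAG, a core bound by SOX proteins, was in 16.5%, and GTGGGCG, a core bound by EGR proteins, was in 7.0%. The Prnp window held 2 CCAAT boxes, 2 GC boxes, 1 TGACG and 1 TATAAA. Of these matches 1 GC box reads on the forward strand and the others on the reverse strand. The Adam23 window and that of Adam22 held none of the 6 motifs, and that of Adgrg6 held 2 GC boxes and 1 TGACG. All 4 windows were richer in G and C than the median window (52.4%), at 70.4% for Adam23, 69.6% for Adgrg6, 66.8% for Adam22 and 58.8% for Prnp.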

How the data were processed

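Per the labels, 250 ng of DNase-treated sciatic nerve RNA went into each stranded polyadenylated library. The deposited table holds estimated counts for each gene, made by the authors with STAR and Salmon on GRCm38, per the submitters' processing notes; their versions and settings were not given in the sources used here. Values were rounded to whole numbers, since 8.29% were fractional. Symbols matched 55141 of 55487 identifiers.

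Genes that passed filterByExpr at a minimum count of 10 and a minimum total of 15 were scaled by trimmed mean of M values and compared with the quasi-likelihood test of edgeR 4.0.16 (R 4.3.3, limma 3.58.1), with p-values adjusted by Benjamini-Hochberg over all 15056 genes tested and called under 0.05. Standard errors are the fold change divided by the root of F. Alternatives were RLE factors, trimmed-mean factors without muscle, erythroid, adipocyte and mitochondrial genes, scaling to pan-Schwann markers, all genes unfiltered, genes at 1 CPM or more in 4 libraries, DESeq2 1.42.0, limma-voom (quality-weighted), a replicate block, Xist or the mean muscle marker level as a covariate, the female libraries by themselves and each library left out. Scaling to the geometric mean of the pan-Schwann markers was added after seeing the data. The steps were tested on simulated counts. Single-gene results of some list members are not reported here.

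The 6 genes and the related lists were chosen with earlier results of these data known, so their counts are descriptions and no list was tested as a set. Any member of the lists could be named, except that adhesion receptors were limited to 6 called genes by p, and pattern neighbours to the 3 with the highest r (log2 CPM, prior count 2). Cdk7 and Cnp were checks of the labels: Cnp, whose locus carries Cre, averaged 1389 ± 61.6 CPM in CNP-Cdk7cKO and 3134 ± 137 CPM in Ctrl (SD, n = 4 each). Replicates of a group differed by more than counting noise, at 3.86 to 17.6 in chi-square per degree of freedom. Library totals of 16897242 to 21527891 gave each member between 124 (Adam11) and 6642 (Prnp) counts per library.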

Additional observations from a re-analysis of the deposited data

Results flagged for a closer look

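Adam11 measured 6.18 CPM in CNP-Cdk7cKO 3, far below the 9.83 to 10.005 CPM of the other CNP-Cdk7cKO libraries, and the gap to its nearest neighbour was 0.954 of the group's range. Without CNP-Cdk7cKO 3 the log2 fold change of Adam11 was 0.35, and edgeR did not call it.

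The summed pan-Schwann markers stood at 88400 CPM in Ctrl 1, above the 78211 to 79650 CPM of the other Ctrl libraries, with a gap of 0.859 of the group's range. Ctrl 1 was also the female Ctrl library. In groups of 4 a gap above 0.829 of the range arises by chance in about 5% of groups.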

How the results depend on the processing

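Lgi4 was called lower in all 18 alternatives without pan-Schwann scaling (-0.65 to -0.50). Scaled to the summed pan-Schwann markers, the values were 0.027 for Lgi4, 0.087 for Adgrg6, and 0.26 for Adam22, 0.76 for Adam11 and 0.44 for Prnp, the last 3 called higher. Scaled to their geometric mean, chosen after seeing the data, they were -0.16 for Lgi4 and -0.57 for Adam23 (both called), 0.068 for Adam22, -0.11 for Adgrg6, and 0.58 for Adam11 and 0.25 for Prnp (both called higher), with the median gene moved by 0.36. Called genes numbered 12182 higher and 208 lower with the sum, 9986 and 317 with the geometric mean, 75 and 163 with Xist, 108 and 161 with muscle markers as a covariate, and 37 and 77 in female libraries alone, against 763 and 994. Calls were lost with Xist for Adam22 (-0.28), Adam23 (-0.96) and Adgrg6 (-0.54), with muscle markers for Adam22 (-0.37), and in female libraries alone for Adam22 (-0.28), Adam23 (-0.97) and Adgrg6 (-0.54). DESeq2 and limma-voom called Prnp (-0.12 by each). The causes were not tested. Sex was nearly confounded with group, since Ctrl 1 was the 1 female Ctrl library.

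With 1 library left out, log2 fold changes ranged over -0.55 to -0.50 for Lgi4, -0.32 to -0.26 for Adam22, -1.14 to -0.80 for Adam23, 0.15 to 0.35 for Adam11, -0.56 to -0.41 for Adgrg6 and -0.14 to -0.11 for Prnp, and 470 to 655 genes were higher and 653 to 860 lower (470 and 653 without Ctrl 2, and 500 higher without Ctrl 3).

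With the replicate number as a block, the values were -0.53 for Lgi4, -0.29 for Adam22, -0.96 for Adam23, 0.19 for Adam11, -0.48 for Adgrg6 and -0.12 for Prnp, and no call of these 6 changed; 682 genes were higher and 926 lower. Libraries with the same number were correlated at 0.044, 0.076, 0.127 and 0.009 after group means were removed. No label says that the numbers pair animals, and correlations over so few libraries cannot decide it.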
